A study of Homo sapiens with 32 samples.

Results

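Decay of newly made RNA was examined for 10 growth-induced genes of the EGR, KLF and IER families in MDA-LM2 and MDA-MB-231 breast cancer cells. The 10 genes were EGR1 and EGR3, the Krüppel-like factors KLF2, KLF4, KLF6, KLF9 and KLF10, and the immediate early response genes IER2, IER3 and IER5. They were found in the tables of decay rates by matching RefSeq transcripts to current gene symbols. Of these, 8 genes had a rate in at least 1 line, 6 of them in both lines, out of 10829 genes with a rate in both. KLF2 had a rate in MDA-LM2 alone and KLF9 in MDA-MB-231 alone, and EGR1 and EGR3 were not analysed here. MDA-MB-231 is an established human breast cancer line, and MDA-LM2 is a derivative of it selected for growth in the lung, so each group is 1 cell line. Both lines were grown in serum-containing medium and given 4-thiouridine (4sU), a uridine analogue taken up into new RNA, for 2 h. The medium was then exchanged for fresh medium with excess uridine. Labelled RNA was precipitated and sequenced at 0, 2, 4 and 7 h, from 4 libraries of each line at each time (32 in all).

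Immediate early genes are transcribed within minutes of a growth signal without new protein synthesis, and their messages and proteins are usually short-lived. EGR and KLF proteins bind DNA through zinc fingers and pass the signal on to later genes, while IER2, IER3 and IER5 are small proteins outside these families. Many messages of this kind carry AU-rich elements in the 3′ untranslated region (UTR), where proteins such as those of the ZFP36 family bind and bring in the deadenylation machinery.

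The 3′ UTRs of these genes are shown first because such elements are the best known sequence feature of short-lived messages. The letters ATTTA, the core of the element, were searched on the transcript strand of the GENCODE 29 transcript matched to each measured RefSeq entry. Overlapping matches were counted, as were matches to the longer form TTATTTATT, which contains it. Of 13994 measured coding transcripts with a 3′ UTR, 69.3% held ATTTA and 8.03% held TTATTTATT. For each gene, the 30 bases with most ATTTA matches are given 5′ to 3′ with the matches in capitals, and KLF10 is described by its counts alone.
IER5: ttcctttATTTATTTATTTATTTAattata
IER3: taattaatATTTAtatgtATTTAtgtacgt
KLF6: gtATTTAcaaatataacacaacaATTTAac
KLF2: aactgtgactggtATTTAttggacccagag
KLF4: tcttccgatcaacATTTAtgacctaagtca
KLF9: aagcagagtctgaATTTAtactaatcaaga
These windows lie in GRCh38, a later build than the hg18 named in the submitters' processing notes, at chr1:181092448-181092477 (plus strand) for IER5 and chr6:30743648-30743677 (minus strand) for IER3. Those of KLF6, KLF2, KLF4 and KLF9 lie at chr10:3778791-3778820 (minus), chr19:16327100-16327129 (plus), chr9:107485147-107485176 (minus) and chr9:70387065-70387094 (minus).

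The genes differed widely in this feature. IER5 held 10 ATTTA matches in 3013 bases of 3′ UTR, and it alone of the 8 genes held TTATTTATT, in 3 overlapping copies that all lie in the window shown. As many ATTTA matches were found in 25.9% of transcripts of like length, and TTATTTATT in 14.5%. IER3 was the densest, with 6 matches in 737 bases (8.14 per kb, against a median of 1.72 per kb over all transcripts), and as many matches were found in 2.23% of the 764 transcripts with a 3′ UTR within 10% of that length. IER2 held none in 1050 bases, although 80.7% of transcripts of like length held at least 1. Among the other 5 genes there were 3 matches in KLF2 (843 bases), 2 in KLF4 (899 bases), 6 in KLF6 (3543 bases), 8 in KLF9 (3179 bases) and 3 in KLF10 (1353 bases). As many matches as in these 5 genes were found in 28.3% to 70.5% of transcripts of like length. A match is a run of letters and not a tested site.

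**Figure D1:**
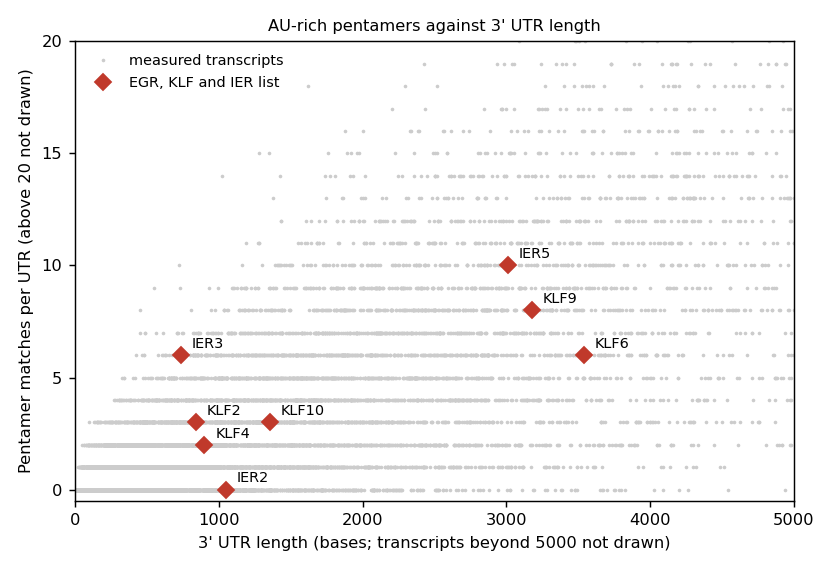
Number of ATTTA matches in the 3′ UTR (vertical axis) against 3′ UTR length in bases (horizontal axis) for measured transcripts (grey points) and the 8 genes with a rate (red diamonds). IER3 stands high for its 737 bases, and IER2 has no match in 1050 bases.

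The authors' tables give 1 decay rate per transcript in each of 4 replicate series per line, labelled 1_1, 1_2, 2_1 and 2_2, where a series spans the 4 time points. A higher rate is read as faster loss of labelled RNA. Neither the unit nor the log base is stated, so rates are printed as deposited and no half-life is given. Nothing says that the series are separate cultures, and the p-values therefore cover the spread among these series alone, which may be technical. Read depth is unknown. The samples are bulk cultures, in which fewer cells of a type and less RNA per cell cannot be told apart. The median rate over all genes was 0.167 ± 0.0105 in MDA-LM2 against 0.193 ± 0.016 in MDA-MB-231 (SD, n = 4 series each). Most rates lay within 1 of 0, but a separate group lay above 8, with 1.71% of rates in MDA-LM2 against 9.02% in MDA-MB-231. The handling of zeros is not given, and rates above 8 may not be on the same footing as the others. Series sharing the second number of their label were more alike across genes (Spearman rho of 0.792 and 0.837 for MDA-LM2 and of 0.631 and 0.78 for MDA-MB-231) than other pairs (0.608 to 0.628 in MDA-LM2, 0.253 to 0.361 in MDA-MB-231). A table of rates gives no expression levels, so line identity could not be checked on marker levels, and only whether a marker had a rate could be told. Rates were present for 4 of 5 mesenchymal markers in MDA-LM2, 5 of 5 in MDA-MB-231, and for 4 of 5 epithelial and 1 of 3 immune markers in each line. Of 2 endothelial and fibroblast markers, 0 had a rate in MDA-LM2, 1 in MDA-MB-231.

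Each of the 5 listed KLF genes had a higher rate than the median gene in most series of each line that measured it. KLF4, a regulator of epithelial differentiation and one of the factors used to reprogram cells, had rates of 0.976, 0.649, 0.641 and 0.609 in MDA-LM2 series 1_1, 1_2, 2_1 and 2_2. In MDA-MB-231 the same series gave 9.65, 0.3, 0.768 and 0.376. Series 1_1 of MDA-MB-231 thus stood alone above 8, and the ranges of the lines overlapped. KLF10, a TGF-beta-inducible repressor, had 0.491, 0.528, 0.408 and 0.48 in MDA-LM2, against 0.447, 0.485, 0.554 and 9.91 in MDA-MB-231. Its 4 MDA-LM2 rates were close together, with an SD of 0.0501, and 3 of the 4 MDA-MB-231 rates fell in or beside that range.

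KLF6, a widely expressed factor induced by injury and growth signals, had 9.49, 0.501, 9.5 and 0.375 in MDA-LM2, against 1.99, 9.6, 1.19 and 1.17 in MDA-MB-231. The MDA-LM2 rates split by the second number of the label, with both series numbered 1 above 8 and both numbered 2 at or below 0.501. In MDA-MB-231 no KLF6 rate lay within 1 of 0, and series 1_2 stood apart from the other 3. KLF2, known for its role in endothelial and T cell quiescence, had 0.282, 9.17, 0.153 and 9.2 in MDA-LM2, also split by that number but the other way round. KLF9, a hormone-responsive factor, had 0.118, 0.369, 0.295 and 0.58 in MDA-MB-231, with no rate above 1.

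Among the IER genes, IER2, a nuclear protein and transcriptional regulator, had 9.26, 0.372, 9.32 and 0.563 in MDA-LM2, against 9.14, 9.09, 9.17 and 9.11 in MDA-MB-231. All 4 MDA-MB-231 rates lay above 8, as in 2.17% of the genes of that line, and the MDA-LM2 rates split by the second number of the label as for KLF6. IER3, a stress-induced regulator of survival and of ERK signalling, had 0.367, 0.377, 0.35 and 0.618 in MDA-LM2 against 0.221, 9.6, 0.416 and 0.317 in MDA-MB-231. IER5, a partner of the heat shock factor HSF1, had 0.426, 0.639, 0.525 and 0.469 in MDA-LM2 against 0.492, 0.198, 0.634 and 0.246 in MDA-MB-231. It was the only gene of the 6 measured in both lines with all 8 rates within 1 of 0, and its MDA-LM2 range lay inside its MDA-MB-231 range apart from 1 rate of 0.639.

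**Figure D2:**
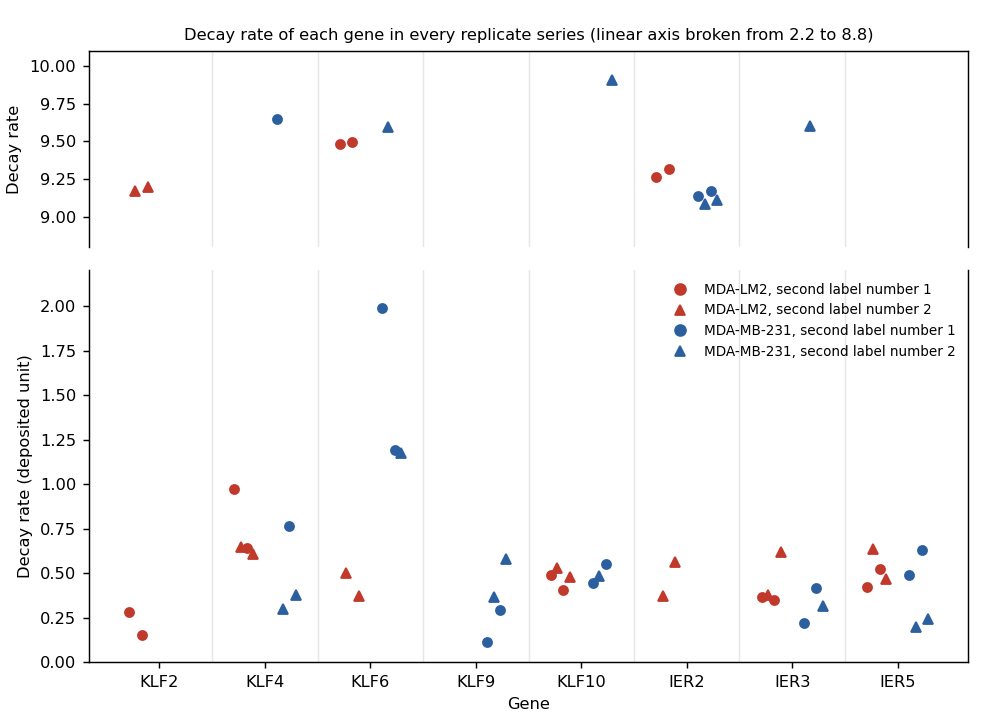
Decay rate in the deposited unit (vertical axis, linear, with the empty middle range left out) of the 8 genes in every replicate series. Red points are MDA-LM2 and blue points MDA-MB-231, with circles for series of second label number 1 and triangles for number 2. KLF2, KLF6 and IER2 split by symbol in MDA-LM2, while IER2 is above 8 in all 4 MDA-MB-231 series.

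Rates above 8 were found in 3 of the 7 genes measured in MDA-LM2, against 5 of the 7 in MDA-MB-231, where 4.28% and 17.9% of all genes had at least 1 such rate. They made up 6 of 28 rates in MDA-LM2 against 8 of 28 in MDA-MB-231. All 6 in MDA-LM2 came as pairs of series with the same second number, and 83.6% of the 159 MDA-LM2 genes with exactly 2 rates above 8 had this pattern. In MDA-MB-231, 4 of the 5 genes (KLF4, KLF6, KLF10 and IER3) had only 1 such rate, in series 1_1, 1_2, 2_2 and 1_2. The part that the series with the same number play in these rates was not tested.

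The place of a gene among all genes of its series does not need the unit. In MDA-LM2, 27 of 28 rates of the 7 genes lay above the median gene of the series, and 20 lay above the 90th percentile. In MDA-MB-231, 27 of 28 lay above the median and 8 above the 90th percentile. The 2 exceptions were KLF2 in series 2_1 of MDA-LM2 (percentile 47.8) and KLF9 in series 1_1 of MDA-MB-231 (31.7). In each line 6 of the 7 genes were above the median in all 4 series, as were 31% of all genes in MDA-LM2 against 22.4% in MDA-MB-231.

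By mean percentile over the series, the order in MDA-LM2 was KLF6 (94.5 ± 6.47, SD, n = 4), KLF4 (94.2 ± 0.888), IER2 (94.2 ± 6.4), IER5 (92.3 ± 1.55), KLF10 (91.6 ± 1.37), IER3 (88.4 ± 3.42) and KLF2 (80.8 ± 23.9). In MDA-MB-231 it was IER2 (91.5 ± 0.415), KLF6 (87.5 ± 7.35), KLF10 (83 ± 11.3), KLF4 (80.5 ± 13.2), IER3 (74.5 ± 17.5), IER5 (68 ± 12.3) and KLF9 (62.1 ± 21.2). In both orders the range of every gene overlapped that of the next, so no 2 neighbours were separated by their spread. Rates above 8 entered these orders, 2 of the 4 for KLF6 in MDA-LM2 and all 4 for IER2 in MDA-MB-231. The 2 scales are not alike at the top: a rate of 1 stood at percentile 94.4 to 95.4 in the MDA-LM2 series and at 81.4 to 81.6 in the MDA-MB-231 series, because more MDA-MB-231 rates lay above 1.

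**Figure D3:**
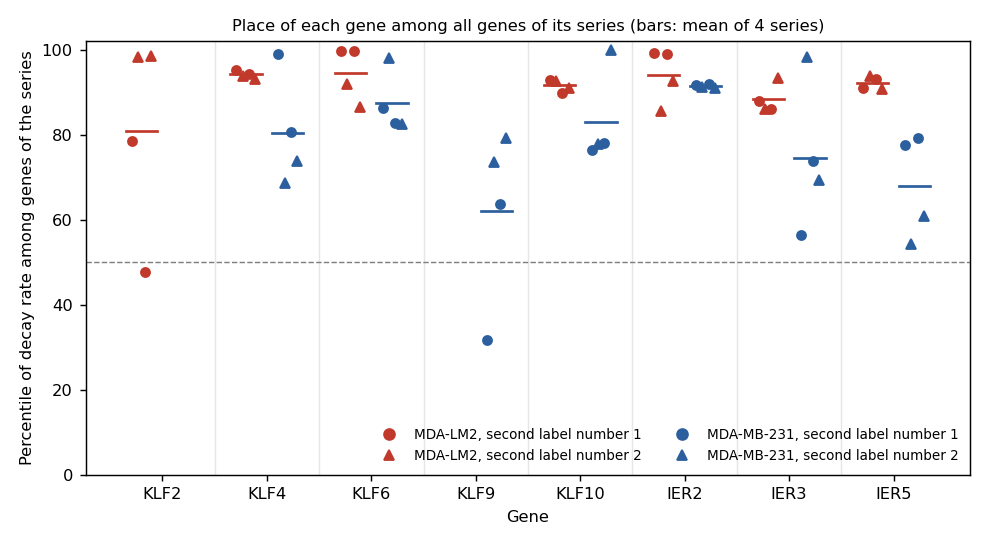
Percentile of the decay rate among all genes of the same series (vertical axis) for the 8 genes. Symbols and colours mark line and label number, bars are means of 4 series, and the dashed line is the median gene. All rates but 2 lie above the dashed line, and the MDA-LM2 points of KLF4, KLF10 and IER5 form tight groups between 89.9 and 95.4.

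By its title the study measured differential stability between the lines. None of the 6 genes measured in both lines was called slower or faster in MDA-LM2 at a Benjamini-Hochberg adjusted p of 0.05 (limma, 4 against 4 series, over all 10829 genes). Of all genes, 6.71% were called slower and 2% faster, 8.72% together. The mean rate was lower in MDA-LM2 for 4 of the 6, as for 67% of all genes. None of the 6 had an unadjusted limma p under 0.05, a level that 26.2% of all genes reached, and the score of the authors' deposited table, read as an unequal-variance p and adjusted over transcripts, called none either. These misses do not show that the rates were alike, and 5 of the 6 intervals given next are wide.

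IER2 had the largest difference, with 4.88 ± 5.09 in MDA-LM2 against 9.13 ± 0.0372 in MDA-MB-231 (difference -4.25, 95% interval -9.8 to 1.31, limma adjusted p = 0.28). KLF10 averaged 0.477 ± 0.0501 in MDA-LM2 against 2.85 ± 4.71 in MDA-MB-231, a difference of -2.37 (-7.53 to 2.79). Those of IER3 (-2.21, -7.3 to 2.88), KLF4 (-2.05, -7.1 to 2.99) and KLF6 (1.48, -5.96 to 8.91) were as uncertain, with limma adjusted p of 0.484 to 0.762 for these 4 genes. IER5 had the narrowest interval, with 0.515 ± 0.0924 in MDA-LM2 against 0.393 ± 0.206 in MDA-MB-231 (difference 0.122, -0.131 to 0.376, adjusted p = 0.471). For all 6 genes the ranges of the lines overlapped, and two-sided exact permutation p-values were 0.314 to 1, where 0.0286 is the smallest that 4 against 4 series allow.

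Single series set several of these values. Without series 1_1 of MDA-MB-231 the KLF4 difference was 0.237, and without series 1_2 of MDA-MB-231 that of IER3 was 0.11. Without series 2_2 of MDA-MB-231 the KLF10 difference was -0.0185, limma adjusted p = 0.804. KLF6 stood at -0.0303 without series 1_1 of MDA-LM2 and at -0.0343 without series 2_1, but at 3.51 without series 1_2 of MDA-MB-231. IER5 ranged from 0.0575 without series 1_2 of MDA-MB-231 to 0.203 without series 2_1 of that line. IER2 stood at -2.75 without series 1_2 of MDA-LM2 and at -2.81 without series 2_2 of that line. None of these was called.

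Within the series of each label number, the genes differed again. In series numbered 1, KLF6 was called faster in MDA-LM2 (difference 7.9, limma adjusted p = 0.00293, 2 against 2 series), where 4.16% of all genes were called faster and 17% slower, and in series numbered 2 its difference was -4.95 (adjusted p = 0.46). In series numbered 2, IER2 was called slower in MDA-LM2 (-8.63, limma adjusted p = 0.0026), where 9.24% of all genes were called slower and 1.82% faster, and in series numbered 1 its difference was 0.135 (adjusted p = 0.064). For both genes the pooled difference thus did not hold within both label numbers. In each of these fits the 2 series of a line share the label number and were alike (Spearman rho of 0.631 to 0.837). Their limma p-values therefore cover only the spread between such series. The split also follows the number by which KLF6 and IER2 rates separate in MDA-LM2. KLF4 had -4.4 in series numbered 1 and 0.291 in series numbered 2, and for these numbers in turn IER3 had 0.0399 and -4.46, KLF10 -0.0505 and -4.69, and IER5 -0.0874 and 0.332, with none called.

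**Figure D4:**
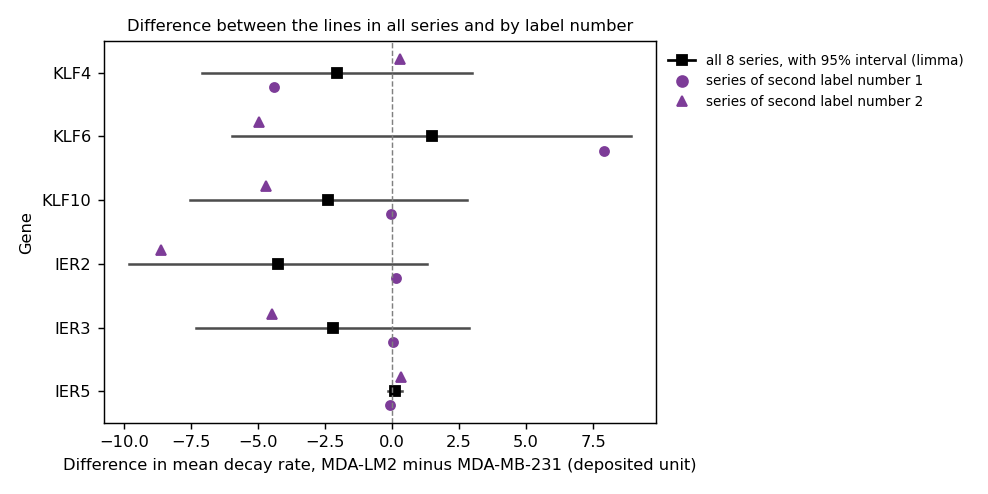
Difference in mean decay rate, MDA-LM2 minus MDA-MB-231 (horizontal axis, deposited unit), for the 6 genes measured in both lines. Black squares with bars are all 8 series with the 95% limma interval, and purple circles and triangles are the series of label number 1 and 2. All 6 intervals include 0, and the purple points of KLF6 lie at 7.9 and -4.95.

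On the percentile scale, an alternative added after the rates had been seen, all 6 genes stood higher in MDA-LM2, by 2.68 percentile points for IER2 up to 24.2 for IER5. Over all genes 51.2% stood higher. So did 30 of the 37 other immediate early genes, 5 of the 6 other EGR, KLF and IER genes and 7 of the 9 regulators of EGR and SRF. The share over all genes is not matched for rate, and a like high rate stands at a higher percentile in MDA-LM2. These counts, and those on this scale given below, are therefore not read as a trait of the lists. IER5 was called (interval 10 to 38.4, limma adjusted p = 0.0351), where 8.05% of all genes were called faster and 7.48% slower, but not with a correlation between series that share a label number (adjusted p = 0.131). It was also the only one of the 6 with an unadjusted p under 0.05 on this scale, as 16.9% of all genes had with a higher percentile in MDA-LM2. A rate of 0.469 stood at percentile 90.8 in series 2_2 of MDA-LM2, and one of 0.492 at 77.6 in series 1_1 of MDA-MB-231. Ranked among the 7224 genes with all 8 rates within 1 of 0, IER5 stood at 98.8 ± 0.888 in MDA-LM2 against 84.7 ± 15.4 in MDA-MB-231 (difference 14.1, interval -1.16 to 29.3, limma adjusted p = 0.186). The IER5 call on the percentile scale was therefore not kept among these genes.

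Other members of the 3 families were measured more thinly. Of 16 further EGR, KLF and IER genes listed, 6 had rates in both lines (KLF3, KLF5, KLF7, KLF12, KLF13 and KLF16), and limma called none, against 8.72% of all genes. At an unadjusted limma p under 0.05 there were 3 of the 6, against 26.2% of all genes. On the percentile scale 1 of the 6 was called slower, against 7.48% of all genes. KLF5, a proliferation-associated factor, had 0.39 ± 0.0219 in MDA-LM2 against 0.3 ± 0.366 in MDA-MB-231. KLF3, a repressor, had 0.319 ± 0.0824 in MDA-LM2 against 0.196 ± 0.167 in MDA-MB-231, and KLF12 had 0.25 ± 0.0458 in MDA-LM2 against 0.227 ± 0.0586 in MDA-MB-231. KLF7, KLF13 and KLF16 each had 3 of 4 MDA-MB-231 rates above 8 and none in MDA-LM2, with MDA-LM2 rates of 0.193 to 0.526, and these 3 were singled out after their values were seen. Of all genes, 17.9% had at least 1 rate above 8 in MDA-MB-231, against 4.28% in MDA-LM2, and the share with the pattern of these 3 was not counted. The median difference of the 6 further genes, which the rates above 8 pull down, was -3.28, against -0.0539 over all genes. It was 0.0898 for the 3 with all rates within 1 of 0, and on the percentile scale 5 of the 6 stood higher in MDA-LM2, with a median of 11.7 points.

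Genes that switch on EGR transcription or restrain EGR proteins were the next list. All 9 listed (the factors SRF, ELK1, ELK3, ELK4 and ETS2, the SRF coactivators MRTFA and MRTFB, and the EGR corepressors NAB1 and NAB2) had rates in both lines. Their median rate was 0.262 in MDA-LM2, with 0.263 in MDA-MB-231. The 6 growth-induced genes measured in both lines had medians of 0.571 in MDA-LM2, against 0.546 in MDA-MB-231, and all genes 0.168 in MDA-LM2, against 0.202 in MDA-MB-231. Such a median is taken over genes, from the median of each gene over the 4 series. Taken within each series, the median of the 6 genes was 0.515 to 0.734 in MDA-LM2, against 0.701 to 4.79 in MDA-MB-231. The direction for the 6 genes thus depends on the summary. limma called none of the 9, against 8.72% of all genes, with 1 at an unadjusted p under 0.05, against 26.2% of all genes. On the percentile scale it called 3 of the 9 faster in MDA-LM2, MRTFB among them (adjusted p = 0.033), against 8.05% of all genes. Ranked among genes with all 8 rates within 1 of 0, none of the 7 regulators in that range was called, MRTFB included. Their median difference was 2.26 percentile points. By mean over both lines, the fastest within 1 of 0 were ETS2 (0.426 ± 0.0774 in MDA-LM2 against 0.259 ± 0.15 in MDA-MB-231), MRTFB (0.366 ± 0.0451 in MDA-LM2 against 0.261 ± 0.0761 in MDA-MB-231) and MRTFA (0.278 ± 0.0914 in MDA-LM2 against 0.28 ± 0.115 in MDA-MB-231).

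Of 53 other immediate early genes listed, 37 had rates in both lines, with a median rate of 0.453 in MDA-LM2 against 0.459 in MDA-MB-231. limma called 5 faster in MDA-LM2 (FOSL1, CCN1, CCN2, ZFP36L1 and SPRY2) and 4 slower (NFKBIA, DUSP4, MCL1 and EREG), against 2% faster and 6.71% slower over all genes, and the median difference of the 37 was -0.0431. On the percentile scale the balance changed, with 13 called faster and 0 slower, against 8.05% faster and 7.48% slower over all genes. The median difference on that scale was 14.6 percentile points. Ranked among genes with all 8 rates within 1 of 0, 3 of the 22 in that range were called faster and 1 slower, with a median of 3.56 points. For these 22 the median difference in rate was 0.0506. The p-values in brackets are limma adjusted p-values. CCN2, a secreted matrix protein, had 0.652 ± 0.0633 in MDA-LM2 against 0.404 ± 0.0351 in MDA-MB-231 (limma adjusted p = 0.0189). ZFP36L1, which itself binds AU-rich elements, had 0.535 ± 0.0384 in MDA-LM2 against 0.328 ± 0.0479 in MDA-MB-231 (adjusted p = 0.0183), and SPRY2, an inhibitor of growth factor signalling, 0.469 ± 0.106 in MDA-LM2 against 0.199 ± 0.0721 in MDA-MB-231 (0.0428). EREG, a ligand of the EGF receptor, had 0.21 ± 0.0379 in MDA-LM2 against 0.462 ± 0.101 in MDA-MB-231 (0.0332). MCL1, an inhibitor of apoptosis measured as the median of 3 transcripts, had 0.357 ± 0.0169 in MDA-LM2 against 0.551 ± 0.05 in MDA-MB-231 (0.0189), but stood 7.28 percentile points higher in MDA-LM2. FOSL1, a partner of JUN in AP-1, had 0.557 ± 0.0354 in MDA-LM2 against 0.307 ± 0.0407 in MDA-MB-231 (0.00622). With series sharing a label number treated as correlated, limma called FOSL1 and NFKBIA alone of these 9 (adjusted p = 0.0314 and 0.000325). In the same setting on genes with all 8 rates within 1 of 0 alone, 0 genes were called faster, so FOSL1 was not. On the percentile scale FOSL1 was called (0.00624) and NFKBIA was not (0.101). By mean over both lines, the fastest with all rates within 1 of 0 were CCN1 (0.806 ± 0.0348 in MDA-LM2 against 0.512 ± 0.0375 in MDA-MB-231, 0.0114), BHLHE40 (0.639 ± 0.0437 in MDA-LM2 against 0.716 ± 0.236 in MDA-MB-231) and DUSP1 (0.63 ± 0.161 in MDA-LM2 against 0.594 ± 0.167 in MDA-MB-231). NFKBIA, the inhibitor of NF-kB, and DUSP4, a MAP kinase phosphatase taken as the median of 2 transcripts, each had all 4 MDA-MB-231 rates above 1. NFKBIA had 0.489 ± 0.216 in MDA-LM2 against 9.7 ± 0.065 in MDA-MB-231, and DUSP4 had 0.351 ± 0.0304 in MDA-LM2 against 4.13 ± 1.61 in MDA-MB-231 (0.0421).

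**Figure D5:**
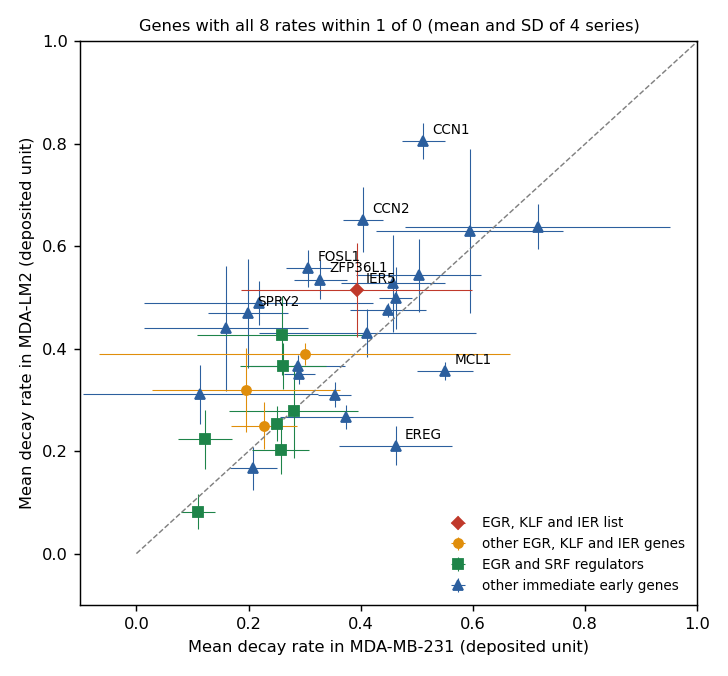
Mean decay rate in MDA-LM2 (vertical axis) against MDA-MB-231 (horizontal axis), in the deposited unit, for listed genes with all 8 rates within 1 of 0; symbols mark the gene list, bars are SDs of 4 series and the dashed line marks equal rates. Labelled are genes called by limma and IER5, which was not called. IER5 lies at 0.515 and 0.393, nearer to the dashed line than the called genes, with a wide bar in MDA-MB-231.

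Among genes with all 8 rates within 1 of 0, those nearest to the median of the 6 genes in each series were ZNF551, BHLHE40, PRICKLE1, RTEL1 and EIF2AK1, with root mean square differences of 1.41 to 1.44 over the 8 series. Most of this distance follows from the choice of genes, since the median of the 6 lay beyond 1 in 2 series, and it says nothing of how alike the rates are. That median reached 4.79 in series 1_2 and 1.24 in series 1_1 of MDA-MB-231 and lay between 0.515 and 0.775 in the other 6 series.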

How the data were processed

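The authors' tables hold 1 decay rate per transcript and replicate series (14545 transcripts in MDA-LM2, 14193 in MDA-MB-231), a score with no stated unit per the file headers, and a deposited differential score between the lines. That score equalled, to within 0.000394, 1 minus an unequal-variance p, signed positive where MDA-LM2 had the lower mean rate. The submitters' processing notes list TopHat, Cufflinks and hg18 and give no version. Of 12966 transcripts in both tables, 12644 were named from a RefSeq table of GRCh38.p14 and 118 from GENCODE 29, and 204 kept their accession. A gene was the median of its transcripts. All 8 series entered one limma fit (limma 3.58.1, R 4.3.3, variance trend, two-sided, Benjamini-Hochberg over 10829 genes). The fit was also run on simulated rates, made only for genes with all 8 rates within 1 of 0 and with independent noise. That run does not cover rates above 8 or series that are alike. Permutation tests used scipy 1.17.1. Settings not planned, all on percentiles or with rates beyond 1 set aside, were added after the data were seen.

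The members and gene lists were chosen with earlier results of these data known. Named genes were the 10 members, the genes past the threshold and the 3 fastest, by mean over the 8 series, within 1 of 0 of each other list, and the 5 genes of most like rates. Read depth is not given, so no interval that needs it is printed. Every value column was assigned to a line.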

Additional observations from a re-analysis of the deposited data

Results flagged for a closer look

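In 9 of 48 groups of 4 series examined (the members and the named genes of the other lists), 1 rate stood far from the other 3. The limit used picks out about 1 in 20 groups, or 2.4 here, if rates are independent and normally spread. That does not hold for these rates, which include a separate group above 8 and series that are alike. The named genes of the other lists were also picked by their values, so 9 against 2.4 shows no excess over chance. The rates picked out among the growth-induced genes were KLF4 (0.976 in MDA-LM2 and, apart from it, 9.65 in MDA-MB-231), KLF6 (9.6 in MDA-MB-231), KLF10 (9.91 in MDA-MB-231) and IER3 (0.618 in MDA-LM2 and, apart from it, 9.6 in MDA-MB-231). Of these 6 rates, the 4 in MDA-MB-231 lay above 8. In the other lists they were CCN2 (0.557 in MDA-LM2), KLF12 (0.14 in MDA-MB-231) and DUSP4 (1.72 in MDA-MB-231).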

How the results depend on the processing

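No listed gene was called in any alternative but 3: KLF6 (1 faster, label number 1 alone), IER2 (1 slower, label number 2 alone) and IER5 (1 faster, percentiles). The replicate block called 250 genes slower and 27 faster and none of the 6. Among the 7224 genes with all 8 rates within 1 of 0, same-numbered series did not deviate together across the lines (r of -0.0373 to -0.00799). Pairing by number was not seen in these genes and was not tested in the others. Against 727 slower and 217 faster, correlated series gave 344 and 35, and with genes in range (all 8 rates within 1 of 0) 1 and 0 (1312 at an unadjusted limma p of 0.05). Label number 1 alone gave 1841 and 450. First label number 1 alone gave 0 and 0 (1103 unadjusted), and number 2 alone 2 and 16. Centred series gave 434 faster, the deposited score 139 faster, and rates beyond 1 set aside 463 slower. Percentiles gave 872 faster, with correlated series 138 slower and 76 faster, among genes in range 399 faster, and with both 11 and 19. Leaving out 1 series gave 406 to 1008 slower and 84 to 283 faster, with at most 479 and 98 without any 1 MDA-LM2 series and 136 faster without series 1_1 of MDA-MB-231. Differences that changed direction were KLF4 (0.108 with rates limited to -1 to 1, 0.291 in label number 2, 0.0528 in first number 2, 0.237 with rates beyond 1 set aside, 13.7 percentile points), KLF6 (-0.281 limited, -4.95 in label number 2, -0.801 in first number 1), IER3 (0.0399 in label number 1, 0.117 in first number 2, 0.11 set aside, 13.9 points), IER2 (0.135 in label number 1, 2.68 points), KLF10 (0.0434 in first number 1, 8.6 points) and IER5 (-0.0874 in label number 1). Leaving out 1 series gave -2.88 to 0.237 for KLF4, -3.02 to 0.11 for IER3, -0.0343 to 3.51 for KLF6, -3.17 to -0.0185 for KLF10, -5.73 to -2.75 for IER2 and 0.0575 to 0.203 for IER5. The cause was not tested. Mean and median percentile over series differed by less than 1 SD for each gene in each line. Depth is unknown, and 4 series per line with rates above 8 limit what can be detected.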

Other observations

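Over all measured transcripts, the median rate was 0.181 with TTATTTATT, 0.166 with ATTTA alone and 0.147 without either in MDA-LM2 (1049, 8028 and 3861 transcripts). In MDA-MB-231 it was 0.203, 0.198 and 0.195 (1034, 7804 and 3785 transcripts). These are medians over transcripts of differing 3′ UTR length and are given with no test.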
